A study of Penaeus japonicus with 16 samples.

Results

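Transcripts of lysosomal proteases and their helper proteins were compared across 5 tissues of kuruma shrimp (Penaeus japonicus). The probes were chosen by description: every non-control probe whose product name, or sequence title where no product name was given, contained cathepsin, legumain, lysosomal thiol reductase or saposin. The rule took 43 of 13875 probes and used no measured value. As the array spells them, the descriptions include cathepsin b, cathepsin d, cathepsin l, legumain and gamma-interferon-inducible lysosomal thiol reductase precursor. The members were 14 probes for cathepsin C, 5 for cathepsin D, 5 for cathepsin L, 5 for lysosomal thiol reductase, 4 for cathepsin B, 4 for legumain, 2 for cathepsin A, 2 for saposin-like proteins, 1 for cathepsin F and 1 for a granzyme h precursor described as similar to cathepsin G. The granzyme belongs to the chymotrypsin-like serine proteases, so its place among lysosomal enzymes rests on the wording of its description.

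Hepatopancreas, lymphoid organ, gills and muscle were represented by 3 arrays each and hemocytes by 4. All RNA came from live, apparently healthy shrimp that had received no treatment, and the labels gave no age, sex or strain. Whether arrays of the same tissue stood for different animals was not stated, and the p-values therefore reflect spread among samples that may be technical. Each array was hybridised in a single colour, and 8 arrays were on each of 2 slides, with every tissue present on both.

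Cathepsins are proteases of the acidic lysosome and related vesicles. Cathepsins B, C, F and L cut with a cysteine, cathepsin D with a pair of aspartates and cathepsin A with a serine. Legumain cuts after asparagine, the gamma-interferon-inducible lysosomal thiol reductase opens disulfide bonds so that proteases can reach folded proteins, and saposins present lipids to lysosomal hydrolases. In decapod crustaceans the hepatopancreas, the digestive gland, also secretes cathepsin-type enzymes for digestion. The lymphoid organ of penaeid shrimp filters foreign material from the hemolymph, and hemocytes are the circulating blood cells.

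Levels are given as log2 of a spot's signal over the 75th percentile of its own array, so that 0 stands for a signal equal to that percentile. Levels can be set side by side between tissues for the same probe but not between probes. A spot is called detected as the scanner software marked it. A probe entered the tests if some tissue had it detected on each of its usable arrays, which left 10317 probes, among them all 43 members. For members that met this rule in a single tissue, the higher call in that tissue is not independent of the rule. Of the members, 14 were detected on all their usable arrays and 29 were undetected on at least 1. A single member spot, for thiol reductase cluster021235 on gills 2, was marked compromised and left out.

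Several probes came from the same assembled region and were not independent. Of the 43 members, 21 came from a single assembly locus that joined unrelated genes, and 12 cathepsin C probes were contigs of another, called the cathepsin C locus here. The 43 probes carried 15 different descriptions, and whether probes of one description stand for separate genes was not settled here. In whole tissues, fewer cells of a type and less RNA per cell cannot be told apart.

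The share of detected probes ran from 41.0% (muscle 3) to 82.3% (lymphoid organ 1), and arrays of a tissue correlated at 0.837 to 0.957 over the tested probes (18 pairs). Word lists of tissue markers were highest in their own tissue for 54 of 80 tested hepatopancreas markers, 23 of 35 hemocyte markers, 23 of 29 muscle markers and 7 of 13 gill markers. No marker list was available for the lymphoid organ, so its label was not checked in this way.

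Among the 43 members, the 2 tissues that stood out for high levels were the hepatopancreas and the lymphoid organ. The highest mean level lay in the hepatopancreas for 23 members (53.5%, against 24.5% of all tested probes) and in the lymphoid organ for 15 (34.9%, against 8.54%). Of the 23, 12 were probes of the cathepsin C locus, which were not independent. Hemocytes held the highest mean for 2 members, gills for 2 and muscle for 1. A probe was called higher or lower in a tissue by its difference from the mean of the other 4. The call needed an adjusted p below 0.05 (limma, Benjamini-Hochberg over all tested probes) and a difference of at least 2-fold. A probe was called enriched when it exceeded the other 4 tissues one by one by 4-fold or more, each with an adjusted p below 0.05.

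**Figure D1:**
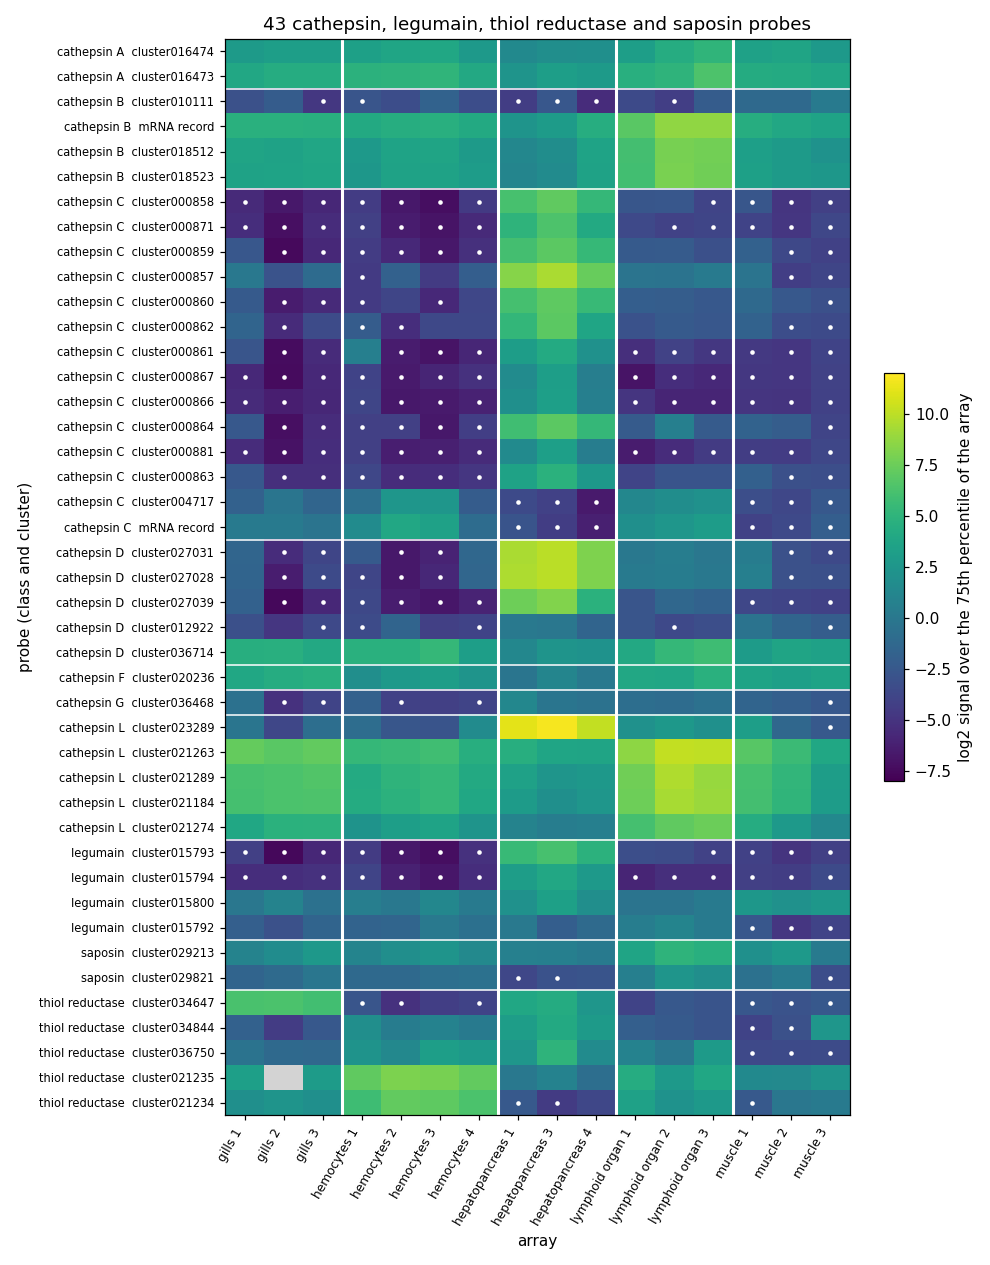
Log2 signal over the 75th percentile of the array for the 43 members (rows, by enzyme class) on the 16 arrays (columns, by tissue). White dots mark spots that were not detected and grey a compromised spot. A block of 12 cathepsin C probes, 3 cathepsin D probes, 1 cathepsin L probe and 2 legumain probes is highest in the hepatopancreas columns, while 4 cathepsin L probes and 3 cathepsin B probes are brightest in the lymphoid organ columns.

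In hepatopancreas, 24 members were higher (all tested probes 20.5%) and 17 lower (23.4%), and 18 were enriched (6.97%). The median difference of the members from the other tissues was 2.59 on the log2 scale, against −0.34 over all tested probes. Cathepsin C cluster000858, cluster000861, cluster000866, cluster000867, cluster000871 and cluster000881, legumain cluster015793 and cluster015794, and cathepsin D cluster012922 entered the tests through the hepatopancreas alone. Their higher calls there are not independent of that rule, and all but cluster012922 were among the enriched members. In the lymphoid organ, 17 were higher (6.42%), 4 lower (2.82%) and 9 enriched (0.727%), with a median difference of 0.33 against 0.098. In hemocytes, 5 were higher (18.8%), 20 lower (27.1%) and 2 enriched (4.07%). In muscle, 2 were higher (20.4%), 14 lower (18.4%) and 1 enriched (5.16%). In gills, 2 were higher (9.15%), 19 lower (8.16%) and 1 enriched (2.64%). Counted over all tissues, 31 members were enriched in a tissue (19.6%).

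With 1 probe per description, the one with the highest mean level, the 15 remaining probes gave 4 higher, 10 lower and 1 enriched in hepatopancreas. That choice took other probes than the enriched ones for cathepsin L, cathepsin D and legumain. The 18 enriched probes carried 4 descriptions, and the 9 of the lymphoid organ carried 5. In the lymphoid organ they gave 10 higher and 5 enriched. The lymphoid organ counts moved when single arrays were left out. Without lymphoid organ 3, 10 members were higher there, and the 9 enriched members became 3 when lymphoid organ 2 was left out, and 4 each when lymphoid organ 3 or gills 2 was. The 4 lower members became 2 without any 1 of the 3 lymphoid organ arrays. The lower members of gills became 8 without gills 2 and 12 without gills 3, and those of muscle 7 without muscle 2, 8 without muscle 3, 8 without lymphoid organ 2 and 9 without hepatopancreas 3.

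**Figure D2:**
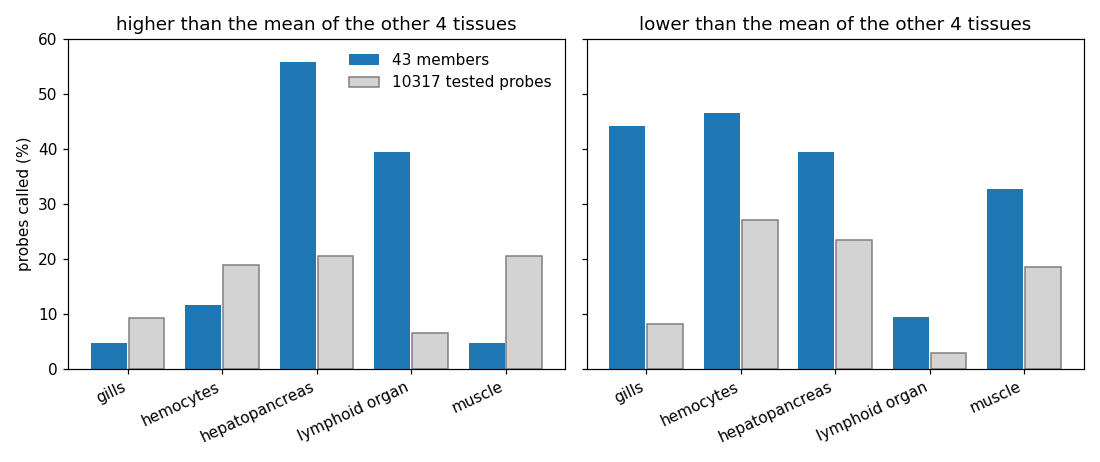
Percent of probes called higher (left) or lower (right) than the mean of the other 4 tissues, by tissue, for the 43 members (blue) and for the 10317 tested probes (grey). The members stand at 55.8% higher in hepatopancreas and 39.5% higher in the lymphoid organ, against 20.5% and 6.42% of all tested probes. Some members higher in hepatopancreas entered the tests through that tissue alone, so their calls are not independent of the detection rule.

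The largest fitted differences of the hepatopancreas among the members belonged to 1 probe of cathepsin L and to 3 probes of cathepsin D. Cathepsin L, a cysteine endopeptidase and a known digestive protease of shrimp, was represented by probe cluster023289 at 11.15, 11.74 and 10.19 in hepatopancreas. The same probe stood at 2.13, 2.69 and 2.03 in the lymphoid organ, at 3.20, −1.35 and −2.43 in muscle, at −0.84, −2.66, −2.84 and 1.64 in hemocytes and at −0.22, −3.72 and −0.81 in gills. All 3 hepatopancreas arrays lay far above the 13 others, and every array except muscle 3 detected the probe. The hepatopancreas mean exceeded the rest at least 2299-fold (log2 11.19, SE 1.02, adjusted p = 2.28e-07) and was 428-fold above the lymphoid organ, the next tissue (adjusted p = 8.78e-05). Folds are written as "at least" where spots of the dimmer tissues were undetected. For these folds, undetected spots below the dimmest detected signal of their array were raised to that signal, and brighter ones kept their value. Log2 differences and p-values are as fitted.

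Cathepsin D, an aspartic protease that also digests food proteins in some crustaceans, had 3 hepatopancreas-enriched probes. Probe cluster027028 stood at 9.54, 9.96 and 8.15 in hepatopancreas, against 0.15, 0.41 and 0.05 in the lymphoid organ. It was detected on muscle 1 (0.67), gills 1 (−1.54) and hemocytes 4 (−1.44) and was undetected on the other muscle, gill and hemocyte arrays. The groups did not overlap, and the hepatopancreas was at least 2454-fold above the rest (log2 11.68, SE 1.03, adjusted p = 1.63e-07). Probes cluster027031 (at least 2424-fold) and cluster027039 (at least 951-fold) followed the same course, with Pearson correlations of 0.996 and 0.963 to cluster027028 over the 16 arrays.

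The 12 cathepsin C probes of the cathepsin C locus moved as a block. Cathepsin C is a dipeptidyl peptidase that in mammals activates the serine proteases of immune cell granules. All 12 were enriched in hepatopancreas, with differences from the other tissues between 7.08 and 10.88 (median 8.99) on the log2 scale. Correlations among them over the 16 arrays ran from 0.792 to 0.993 (median 0.947 over 66 pairs). The probe with the widest range, cluster000858, stood at 6.18, 7.12 and 5.30 in hepatopancreas and was detected elsewhere on lymphoid organ 1 (−2.68) and lymphoid organ 2 (−2.55) alone. It entered the tests through the hepatopancreas alone and was at least 799-fold above the rest (log2 10.88, SE 0.64, adjusted p = 7.30e-09). Probe cluster000857 stood at 8.34, 9.48 and 7.37 in hepatopancreas and, unlike cluster000858, was detected on all arrays of the lymphoid organ (−0.33, −0.35, 0.26) and gills (0.01, −2.88, −1.02). Even so its hepatopancreas mean was at least 933-fold above the rest (adjusted p = 5.67e-08). At the low end, probes cluster000866, cluster000867 and cluster000881 were at least 51.9-fold, 46.9-fold and 46.1-fold higher in hepatopancreas and were undetected on all 13 other arrays. They entered the tests through the hepatopancreas alone, so these differences are not independent of that rule.

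Legumain, the asparaginyl endopeptidase that matures other lysosomal proteases in mammals, had 2 hepatopancreas-enriched probes out of 4. Probe cluster015793 stood at 5.49, 6.14 and 4.87 in hepatopancreas and was detected elsewhere on lymphoid organ 1 (−3.23) and lymphoid organ 2 (−3.37) alone. It was at least 532-fold above the rest (log2 10.43, SE 0.65, adjusted p = 1.32e-08). Probe cluster015794 stood at 3.1, 3.98 and 2.73 in hepatopancreas and was undetected on the 13 other arrays, a difference of at least 128-fold (log2 8.37, adjusted p = 1.32e-08). Both probes entered the tests through the hepatopancreas alone.

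The hepatopancreas differences of the 18 probes enriched there were also fitted within each slide alone. They ran from 6.77 to 11.47 within slide 1, where the tissue had 1 array, and from 6.96 to 12.05 within slide 2. For cluster023289 the difference was 10.81 within slide 1 and 11.78 within slide 2.

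**Figure D3:**
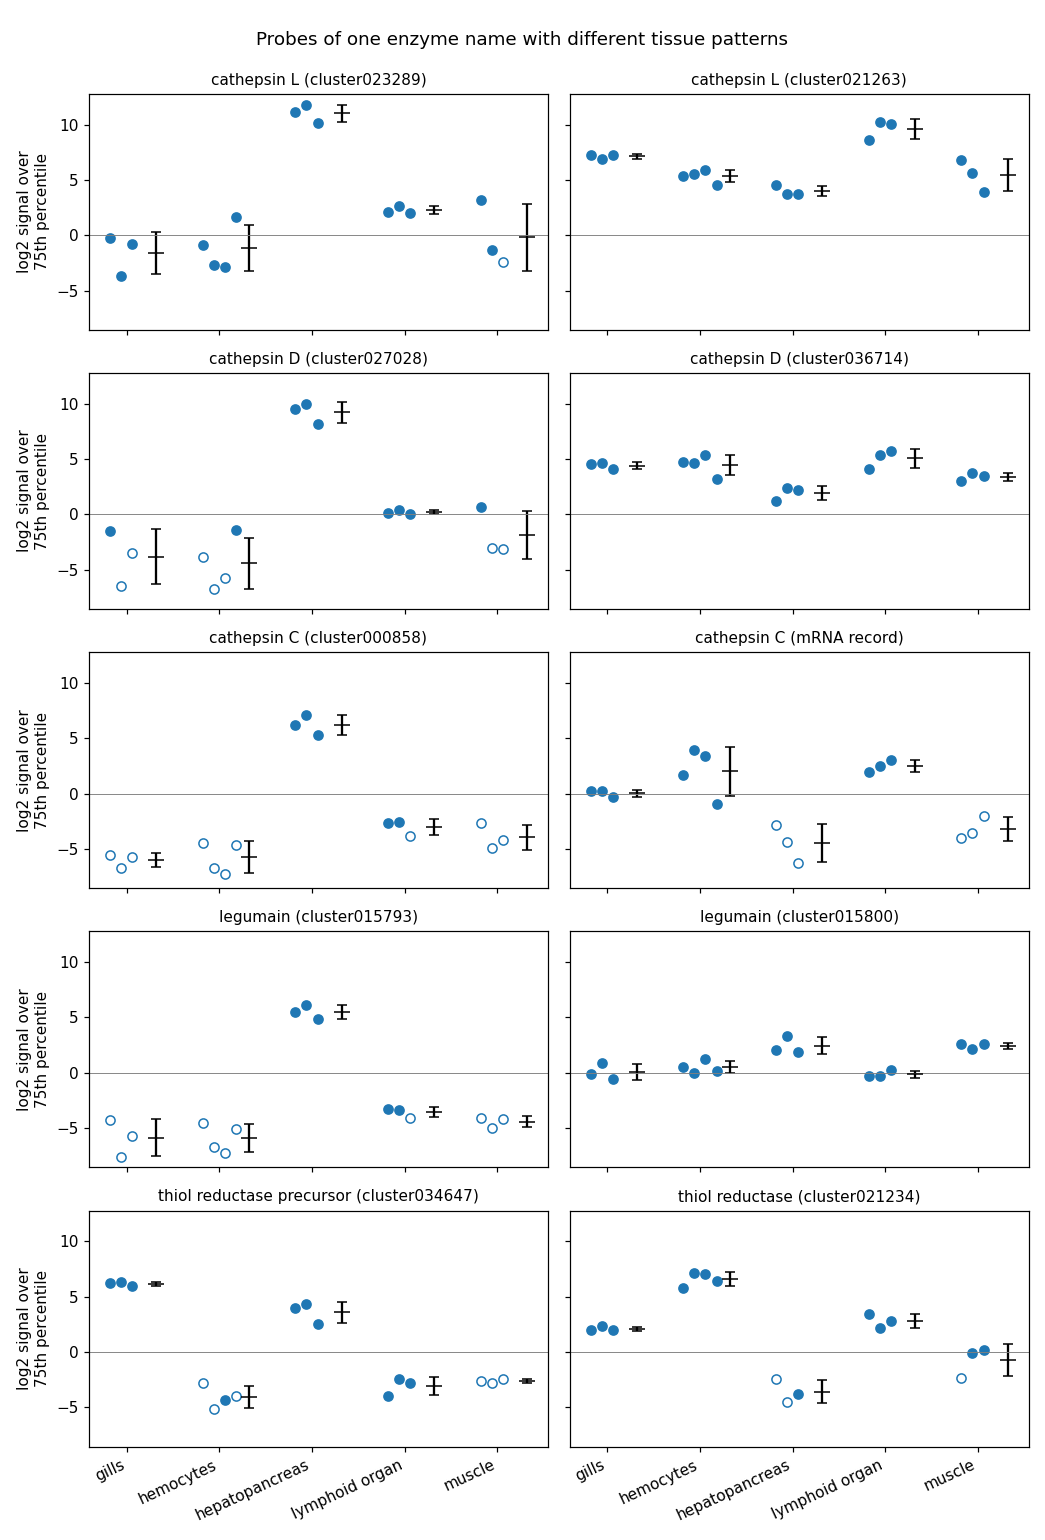
Level of 10 probes on each array, as log2 signal over the 75th percentile, with 2 probes of each enzyme name side by side. Filled points were detected, open points were not, and the black bar is the mean ± SD of the tissue. Within cathepsin L, D and C and legumain, the left probe peaks in hepatopancreas, at means of 11.03, 9.22, 6.20 and 5.50, while the right probe is at or near its lowest level there, except for legumain cluster015800 at 2.46.

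Other arrays held small signals of these hepatopancreas probes, and not evenly. Of the 18, muscle 1 detected 9, muscle 2 detected 3 and muscle 3 detected 0. Gills 1 detected 11, gills 2 detected 2 and gills 3 detected 3. The lymphoid organ arrays detected 13, 12 and 10, and the hemocyte arrays 3, 3, 3 and 6. On a list of 99 hepatopancreas markers chosen by words (trypsin, chymotrypsin, amylase, hemocyanin and others), the signals summed over each array's 75th percentile came to 20900 to 107000 in hepatopancreas. The same sum was 211 to 415 in the lymphoid organ, 79.7 to 242 in muscle, 46.3 to 178 in gills and 58.0 to 109 in hemocytes. In muscle and gills the array with the most detected members also had the highest sum, which was not so in the other tissues. Lymphoid organ 1, with 13 detected members, had the lowest sum of its tissue (211) and lymphoid organ 3, with 10, the highest (415). Hemocytes 4, with 6, had a sum of 101, against 109 on hemocytes 3 with 3. The part of these markers in the low levels outside the hepatopancreas was not tested. Without gills 1, muscle 1 and hemocytes 4, an alternative added after these values were seen, the differences of the 18 probes in hepatopancreas ran from 7.12 to 12.53, against 7.08 to 11.68 with all arrays.

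**Figure D4:**
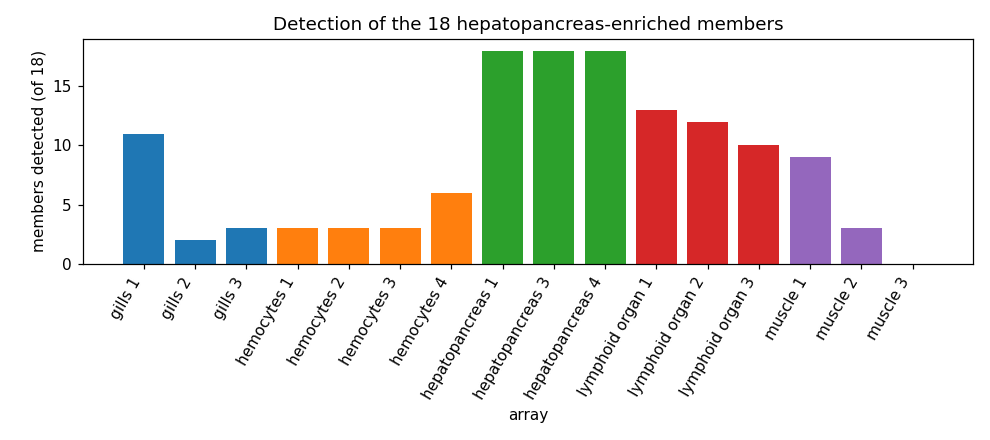
Number of the 18 hepatopancreas-enriched members detected on each of the 16 arrays, coloured by tissue. All 18 were detected on each hepatopancreas array, 10 to 13 on the lymphoid organ arrays, 2 to 11 on gills, 3 to 6 on hemocytes and 0 to 9 on muscle. The 18 were chosen as enriched in hepatopancreas on these same arrays, and some entered the tests through that tissue alone. The contrast between hepatopancreas and the other tissues is therefore not independent of that choice.

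The lymphoid organ had its own set, made of cathepsin B, the other probes of cathepsin L and the saposins. For cathepsin B, a cysteine protease with both endo- and exopeptidase activity, 3 of 4 probes were enriched there. Probe cluster018523 stood at 5.91, 8.0 and 7.63 in the lymphoid organ, at 3.55, 3.59 and 3.72 in gills and at 2.60, 3.50, 3.50 and 3.02 in hemocytes. It stood at 3.36, 2.87 and 2.56 in muscle and at 1.12, 1.63 and 3.49 in hepatopancreas. All 3 lymphoid organ arrays lay above every other array, lymphoid organ 1 lowest among them, and hepatopancreas 4 was more than 1.5 log2 units above its 2 fellows. The lymphoid organ was 18.8-fold above the rest (log2 4.23, SE 0.46, adjusted p = 5.72e-05) and 11.8-fold above gills, the next tissue (adjusted p = 0.00086). Gills, hemocytes, muscle and hepatopancreas did not differ between neighbours in that order (adjusted p = 0.61, 0.76 and 0.261). The probe for the complete cathepsin B mRNA record, at 6.87, 8.70 and 8.66 in the lymphoid organ, and cluster018512, at 6.01, 7.86 and 7.75, differed from the rest by 4.00 and 4.24. The 3 probes correlated at 0.996 to 0.997 with each other, so they count as one pattern.

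Of the 5 cathepsin L probes, 4 were enriched in the lymphoid organ, with differences between 4.05 and 4.18 from the rest. Probe cluster021263 stood at 8.57, 10.20 and 10.05 in the lymphoid organ, at 7.27, 6.90 and 7.23 in gills and at 5.34, 5.58, 5.90 and 4.57 in hemocytes. It stood at 6.79, 5.67 and 3.90 in muscle and at 4.57, 3.75 and 3.71 in hepatopancreas. The lymphoid organ arrays did not overlap any other tissue, the gill arrays came next, and the muscle arrays spread over almost 3 log2 units. The lymphoid organ was 17.4-fold above the rest (log2 4.12, SE 0.48, adjusted p = 9.98e-05) and 5.54-fold above gills (adjusted p = 0.0173). These 4 probes correlated at 0.978 to 0.998 with each other and at −0.411 to −0.292 with the hepatopancreas-enriched cluster023289. In hepatopancreas the 4 were lower than the mean of the other tissues by 2.88 to 3.59 log2 units, so the tissue in which cluster023289 was highest was the lowest one for the other 4 probes.

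Saposins are small proteins released from a common precursor, and both saposin-like probes were enriched in the lymphoid organ. The saposin-related protein (cluster029213) stood at 3.66, 4.99 and 4.65 in the lymphoid organ, against 0.94, 1.73 and 2.66 in gills and 0.72, 0.63 and 0.18 in hepatopancreas. It was 8.09-fold above the rest (log2 3.02, SE 0.49, adjusted p = 0.000878). Saposin isoform 1 (cluster029821) stood at 0.60, 2.45 and 1.86 in the lymphoid organ, and its hemocyte arrays, the next tissue, ran from −1.16 to −0.50. Its difference from the rest was at least 7.63-fold (log2 3.18, SE 0.58, adjusted p = 0.0024).

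The lymphoid organ differences of cathepsin B cluster018523 and cathepsin L cluster021263 had the same direction on both slides and were larger within slide 2. For cluster018523 the difference was 4.25 within slide 1 (adjusted p = 0.0407) and 4.62 within slide 2 (adjusted p = 0.174), where the tissue had 1 array. For cluster021263 it was 3.50 within slide 1 (adjusted p = 0.0455) and 5.07 within slide 2 (adjusted p = 0.119). Fewer members were called higher in the lymphoid organ within each slide alone, where each tissue had 1 or 2 arrays. The share of all tested probes called in these fits is not given here.

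The 2 cathepsin C probes outside the cathepsin C locus had another pattern. The probe for the complete cathepsin C mRNA record stood at 1.98, 2.48 and 3.02 in the lymphoid organ and at 1.65, 3.96, 3.44 and −0.96 in hemocytes. It stood at 0.21, 0.20 and −0.34 in gills and was undetected on all 3 hepatopancreas and all 3 muscle arrays. The hemocyte arrays spread widely, with hemocytes 4 below every gill array. The lymphoid organ was at least 10.4-fold above the rest (log2 3.90, SE 0.82, adjusted p = 0.00676) and hemocytes at least 6.90-fold (log2 3.32, SE 0.74, adjusted p = 0.00158), and the 2 tissues did not differ beyond their spread (1.39-fold, adjusted p = 0.787). Probe cluster004717, also annotated as cathepsin C, stood at 1.25, 1.83 and 2.10 in the lymphoid organ and at −0.69, 2.47, 2.48 and −2.15 in hemocytes, and was likewise undetected in hepatopancreas and muscle. It was at least 9.79-fold above the rest in the lymphoid organ (adjusted p = 0.00768). The correlations of these 2 probes with the 12 of that locus ran from −0.697 to −0.530 over 24 pairs. Their lymphoid organ calls were just lost without lymphoid organ 3, at adjusted p = 0.0509 for the mRNA record and 0.0516 for cluster004717. Within slide 1 the difference of the mRNA record in the lymphoid organ was 3.13 (adjusted p = 0.0922) and within slide 2 it was 4.56 (adjusted p = 0.322).

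Smaller differences between tissues were seen for cathepsin A, 1 cathepsin D probe and cathepsin F, all of them detected on all 16 arrays and lowest in hepatopancreas. Cathepsin A, a serine carboxypeptidase that in mammals also protects other lysosomal enzymes, stood at 2.32, 3.23 and 2.89 in hepatopancreas (cluster016473), against 4.65, 5.01 and 6.42 in the lymphoid organ and 4.87, 4.93, 5.12 and 4.05 in hemocytes. Gills ran from 3.99 to 4.42 and muscle from 3.82 to 4.32, so that hepatopancreas was the lowest tissue without overlap. It was 3.50-fold below the rest there (log2 −1.81, SE 0.36, adjusted p = 0.000653), and the other 4 tissues did not differ between neighbours (adjusted p = 0.354, 0.464 and 0.838). The second cathepsin A probe, cluster016474, was 3.37-fold below the rest in hepatopancreas (adjusted p = 0.00104) and correlated with the first at 0.954. Both were also called higher in the lymphoid organ, by 1.38 and 1.34 log2 units, a call that both lost when lymphoid organ 2 was left out (adjusted p = 0.0593 and 0.146), when lymphoid organ 3 was (adjusted p = 0.225 and 0.241) and with scaling to the median.

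Cathepsin D probe cluster036714 stood at 1.22, 2.39 and 2.17 in hepatopancreas, against 4.08, 5.34 and 5.75 in the lymphoid organ. Hemocytes ran from 3.22 to 5.33, gills from 4.09 to 4.62 and muscle from 3.01 to 3.71, all above the hepatopancreas arrays. It was 5.32-fold below the rest in hepatopancreas (log2 −2.41, SE 0.42, adjusted p = 0.000232), and its correlation with the 3 hepatopancreas-enriched cathepsin D probes was −0.742 to −0.672. The fifth cathepsin D probe, cluster012922, was highest in hepatopancreas (0.12, −0.07 and −1.56), at least 5.05-fold above the rest (adjusted p = 0.00295). It entered the tests through the hepatopancreas alone and did not differ there from muscle beyond the spread (adjusted p = 0.386).

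Cathepsin F, a cysteine protease with a single probe (cluster020236), was highest in gills at 3.90, 4.36 and 4.62, with the lymphoid organ close by at 3.99, 3.82 and 4.67. It stood at 3.64, 3.30 and 3.63 in muscle, at 1.92, 2.71, 3.12 and 2.34 in hemocytes and at −0.26, 1.09 and 0.08 in hepatopancreas. Gills and lymphoid organ overlapped and did not differ (1.10-fold, adjusted p = 0.92), while hepatopancreas lay below all other arrays. Hepatopancreas was below the rest (log2 −3.32, SE 0.34, adjusted p = 9.94e-07) and gills 3.17-fold above (log2 1.67, adjusted p = 0.00262). The gill difference was 1.54 within slide 1 (adjusted p = 0.293) and 1.59 within slide 2 (adjusted p = 0.122).

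The other 2 legumain probes differed from the hepatopancreas pair. Probe cluster015800 stood at 2.11, 3.37 and 1.91 in hepatopancreas and at 2.57, 2.12 and 2.56 in muscle. It ran from 0.00 to 1.23 in hemocytes, from −0.52 to 0.91 in gills and from −0.33 to 0.24 in the lymphoid organ. Hepatopancreas and muscle lay above all other arrays and did not differ from each other (1.03-fold, adjusted p = 0.949). It was 3.35-fold above the rest in hepatopancreas (adjusted p = 0.00171) and 3.22-fold in muscle (adjusted p = 0.00266), which made it 1 of only 2 members higher in muscle. The legumain precursor probe cluster015792 stood at 0.45, 0.99 and 0.19 in the lymphoid organ and was undetected on all 3 muscle arrays. It ran from −1.67 to 0.08 in hemocytes, from −2.01 to 0.12 in hepatopancreas and from −3.03 to −1.58 in gills. It was at least 4.57-fold above the rest in the lymphoid organ (adjusted p = 0.00805), with hemocytes the next tissue and no difference beyond the spread (adjusted p = 0.129).

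The 5 lysosomal thiol reductase probes peaked in 3 different tissues. Probe cluster034647 stood at 6.25, 6.30 and 5.97 in gills and at 3.94, 4.33 and 2.50 in hepatopancreas. It was detected on all 3 lymphoid organ arrays (−3.98, −2.46, −2.80) and on hemocytes 3 (−4.31), and on no muscle array. The gill arrays lay close together and above all others, the hepatopancreas arrays came second, and nothing else overlapped them. Gills were at least 197-fold above the rest (log2 7.72, SE 0.48, adjusted p = 1.16e-08) and 5.99-fold above hepatopancreas (adjusted p = 0.00364). The difference of gills was 7.74 within slide 1 (adjusted p = 0.032) and 7.63 within slide 2 (adjusted p = 0.000628).

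Probes cluster021234 and cluster021235 were the hemocyte thiol reductases. Probe cluster021234 stood at 5.77, 7.17, 7.05 and 6.37 in hemocytes, at 3.45, 2.19 and 2.77 in the lymphoid organ and at 1.97, 2.33 and 1.96 in gills. It was detected on 1 of 3 hepatopancreas arrays and on 2 of 3 muscle arrays, at levels of at most 0.22. Hemocytes lay above every other array, at least 77.5-fold above the rest (log2 6.45, SE 0.47, adjusted p = 7.55e-08) and 13.8-fold above the lymphoid organ (adjusted p = 0.000536). Probe cluster021235 stood at 7.14, 8.03, 7.89 and 7.21 in hemocytes and was 43.1-fold above the rest (log2 5.43, SE 0.37, adjusted p = 7.53e-08), with n = 2 gill arrays after the compromised spot. The pair correlated at 0.961 over 15 arrays. The lymphoid organ call of cluster021234 (log2 1.71, adjusted p = 0.0498) lay at the threshold and was lost when any 1 of 12 of the 16 arrays was left out.

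The last 2 thiol reductase probes were highest in hepatopancreas with hemocytes second. Probe cluster036750 stood at 2.49, 5.05 and 1.66 in hepatopancreas and at 2.26, 1.36, 3.18 and 2.73 in hemocytes, which overlapped (1.61-fold, adjusted p = 0.469), and was undetected on all 3 muscle arrays. Hepatopancreas was at least 8.20-fold above the rest (adjusted p = 0.000518) and hemocytes at least 4.54-fold (adjusted p = 0.00237). Probe cluster034844 stood at 3.17, 4.12 and 2.92 in hepatopancreas and at 1.91, 0.39, 0.84 and 0.27 in hemocytes (5.86-fold, adjusted p = 0.0635). On muscle 3 it reached 2.54, whereas muscle 1 and muscle 2 did not detect it. Correlations between thiol reductase probes of different loci ran from −0.591 to 0.562, so that probes of one enzyme name did not share a tissue order.

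Muscle had 1 enriched member, a cathepsin B probe of a separate locus (cluster010111). It stood at −1.20, −1.16 and 0.22 in muscle, above all 13 other arrays, of which 6 did not detect it and the highest read −1.72 (hemocytes 3). It was at least 4.79-fold above the rest (log2 2.67, SE 0.65, adjusted p = 0.00388) and at least 3.91-fold above hemocytes, the next tissue (adjusted p = 0.0436). It entered the tests through muscle alone and correlated at −0.193 to −0.139 with the other cathepsin B probes. The higher call held without any single array, while the enriched call was lost when any 1 of 10 of the 16 arrays was left out.

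The granzyme h precursor described as similar to cathepsin G (cluster036468), a protease known in mammals from immune cell granules, was higher in hepatopancreas and lower in hemocytes. It stood at 1.27, −0.19 and −0.45 in hepatopancreas, at −0.80, −0.95 and −0.57 in the lymphoid organ and at −1.79, −4.12, −4.25 and −3.91 in hemocytes. Hepatopancreas was at least 5.72-fold above the rest (log2 2.59, SE 0.73, adjusted p = 0.00865), a call lost without hepatopancreas 1 (adjusted p = 0.0755). Hemocytes were at least 4.14-fold below the rest (adjusted p = 0.0156), with the call lost without hemocytes 2, hemocytes 3 or hemocytes 4 (adjusted p = 0.0569, 0.0618 and 0.0505). The order of neighbouring tissues was not resolved anywhere (adjusted p = 0.327 to 0.843).

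Of 172 comparisons between tissues next to each other in a member's order, 49 had an adjusted p below 0.05 (all tested probes 11.2%).

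The many lower calls in gills and hemocytes depended on the hepatopancreas being part of the comparison. A fit of the other 4 tissues, added after the data were seen, called 0 members lower in gills (all tested probes 7.67%) instead of 19, and 1 member higher (9.11%), the thiol reductase cluster034647. The furthest lower differences of gills in the full fit had been those of cathepsin D cluster027028 (log2 −4.61, adjusted p = 0.00495) and cathepsin L cluster023289 (log2 −4.57, adjusted p = 0.00487), both probes of the hepatopancreas set. In hemocytes 9 members were lower without the hepatopancreas (20.4%), of which 2 were among the 20 lower members of the full fit, and 5 were higher (16.4%), of which 4 were also higher in the full fit. The 9 were 3 cathepsin B probes, 4 cathepsin L probes, cathepsin F and the gill thiol reductase, and the 5 were the mRNA record of cathepsin C and 4 thiol reductases.

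In muscle, 15 members were lower without the hepatopancreas (19.2%) and 3 higher (20.2%). Of the 15, 8 were also among the 14 lower members of the full fit and 7 were not, while 6 of the 14 were no longer called. The 15 held 4 of 5 thiol reductases, 4 of 5 cathepsin L probes, 3 of 4 cathepsin B probes, both cathepsin C probes outside the cathepsin C locus, a cathepsin D probe and the legumain precursor. Among them was the cathepsin C mRNA record (fitted log2 −4.72 against the mean of gills, hemocytes and lymphoid organ, SE 0.79, adjusted p = 0.000358), whose level in muscle was not above background on any array. In the lymphoid organ 14 members were higher (9.63%) and 2 lower (5.69%). The 14 included all 9 enriched members, and 1 of the 14 was a probe of the cathepsin C locus, cluster000858, at an adjusted p of 0.049.

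The non-member probes whose levels followed a member most closely were looked up for 5 members over the 16 arrays, which share tissue, array and scaling. Cathepsin D cluster027028 ran with protease inhibitor epi11 (r = 0.995), hemocyanin (r = 0.995) and trypsin (r = 0.994). Cathepsin L cluster023289 ran with lectin D (r = 0.995), a zinc endopeptidase (r = 0.994) and a chymotrypsin-like proteinase (r = 0.994). Legumain cluster015793 ran with an antiviral protein (r = 0.997), a sequence named only after a Drosophila virilis gene (r = 0.995) and an endoribonuclease-like protein (r = 0.995). All of these were highest in hepatopancreas.

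Cathepsin B cluster018523 ran with gamma-glutamyl hydrolase (r = 0.921), an enzyme that trims the glutamate tails of folates in lysosomes. Its next neighbours were 2 probes of proactivator polypeptide (r = 0.903 and 0.873), a name given to the precursor of saposins, which the word rule had not taken. The first proactivator probe, cluster029712, averaged 4.73 in the lymphoid organ, 2.15 in gills and 0.77 in hepatopancreas. The gill thiol reductase cluster034647 ran with chitooligosaccharidolytic beta-n-acetylglucosaminidase (r = 0.959), which breaks down chitin fragments. The same probe also ran with carbohydrate sulfotransferase 11-like (r = 0.952) and a beta-galactosyltransferase (r = 0.946).

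Other lysosomal probes, a list of acid hydrolases, membrane and sorting proteins, inhibitors and autophagy proteins defined by words, numbered 112 on the array, and 88 were tested. In hepatopancreas 37 were higher (42.0%, against 20.5% of all tested probes), 21 lower (23.9%, against 23.4%) and 24 enriched (all tested probes 6.97%). In the lymphoid organ 9 were higher (10.2%, against 6.42%), 4 lower (4.55%, against 2.82%) and 2 enriched (all tested probes 0.727%). In hemocytes 13 were higher (14.8%, against 18.8% of all tested probes) and 34 lower (38.6%, against 27.1%). In muscle 10 were higher (11.4%, against 20.4%) and 23 lower (26.1%, against 18.4%). In gills 5 were higher (5.68%, against 9.15%) and 19 lower (21.6%, against 8.16%). The median difference in the lymphoid organ was 0.086, close to that of all tested probes at 0.098, while that of the members was 0.33. Of the 48 acid hydrolases, 25 were higher in hepatopancreas (all tested probes 20.5%), with a median difference of 2.59.

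Among the named ones of that list, a lysosomal aspartic protease (cluster027033) was at least 1946-fold above the rest in hepatopancreas (log2 11.28, SE 1.02, adjusted p = 2.12e-07), a size like that of the 3 cathepsin D probes. Cathepsin D is itself an aspartic protease, and whether this probe stands for a separate gene was not settled here. Glucosylceramidase isoform 1 precursor (cluster035606), which cleaves glucosylceramide with the help of a saposin, was at least 289-fold above the rest there (adjusted p = 1.43e-08). In the lymphoid organ, palmitoyl-protein thioesterase 1 (cluster021468), which removes fatty acids from proteins in the lysosome, was 14.1-fold above the rest (log2 3.81, SE 0.47, adjusted p = 0.000127), and a lysosomal pro-x carboxypeptidase-like probe (cluster031257) at least 12.6-fold (adjusted p = 0.000127). In hemocytes the transporter sialin (cluster008166), which exports sialic acid from lysosomes, was at least 19.1-fold above the rest (adjusted p = 8.43e-08). In gills plasma alpha-l-fucosidase (cluster019765) was at least 9.84-fold above the rest (adjusted p = 0.000889), and the same probe was at least 8.31-fold above the rest in the lymphoid organ (adjusted p = 0.00347). In muscle lysosomal alpha-mannosidase (cluster010107), which trims mannose from glycoproteins, was 26.4-fold below the rest (adjusted p = 4.6e-05), and deoxyribonuclease ii (cluster009740), which degrades DNA in lysosomes, at least 22.2-fold (adjusted p = 0.00043).

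Differences are relative to each array's 75th percentile, and other scalings moved the median difference of all tested probes by more than 0.1 in log2. In hepatopancreas that median was −0.34, against −0.57 with quantile normalization, −0.54 with scaling to the median and 0.28 with scaling to the 3238 probes detected on all arrays. In muscle it was −0.13 and became −0.61 with the last of these. Of the called members, the share that was higher in the lymphoid organ was 81.0% (17 higher, 4 lower), against 68.0% with quantile normalization (17 and 8) and 68.4% with median scaling (13 and 6). The same share over all tested probes was 69.5%, against 61.1% and 50.5% under these scalings. In gills the members' share was 9.52% (2 and 19), against 20.8% with quantile normalization (5 and 19), and that of all tested probes 52.9%, against 58.5%. In hepatopancreas 24 members were higher under all 4 scalings.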

How the data were processed

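A custom single-colour Agilent array measured Cy3-labelled total RNA of 5 tissues on 16 arrays. The authors deposited processed signals as linear intensity values, with a detection flag per spot (unit other), made with Agilent Feature Extraction 10.7.3.1 per the submitters' processing notes. A table of log2 values was also deposited by the authors. Set against the scanner values, it equals log2 signal minus the 75th percentile over all spots of an array, with no centring and the same direction, and it served as an alternative.

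For each array, log2 of the signal over the 75th percentile of the 13875 non-control probes was taken. The 60 control probes were left out and compromised spots were treated as missing. A probe was tested if some tissue had it detected on each of its usable arrays, which held for 10317 probes and not for 3558. All 16 arrays entered a limma fit with a mean-variance trend (limma 3.58.1, R 4.3.3, 11 residual degrees of freedom), with contrasts of a tissue against the average of the remaining 4 and between all pairs. Benjamini-Hochberg adjustment was applied per comparison over all tested probes. Values were tabulated and plotted with Python 3.11.15, pandas 2.3.3, numpy 2.4.6 and matplotlib 3.10.9, and the fit was tested on simulated data.

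The members and lists were chosen with earlier results of these data known. Probes with values on every array were the member with the widest range of tissue means in each class, up to 5 enriched and up to 3 lowest called members in each tissue, and up to 3 members with the smallest range among those detected on all arrays. Other members were named where their class or count called for it, after their values were seen. Similar probes were the 3 named non-members with the highest correlation, and other lysosomal probes were named up to 4 per tissue by size.

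Signal at the 75th percentile ran from 31.3 (hemocytes 1) to 299.7 (hemocytes 3), and the number of arrays limits the precision. Alternatives covered scaling, detection filter, floor, array weights, trend, slide, replicate number, probe choice and each array left out. The 27 pairs of samples with the same replicate number correlated at −0.405 to 0.399 (median 0.021), and 8 were over 0.1. The 75 pairs with different numbers correlated at −0.283 to 0.342 (median −0.021), and 17 were over 0.1. These overlapping ranges do not settle whether samples of the same number were paired.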

Additional observations from a re-analysis of the deposited data

Results flagged for a closer look

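In 3 of the 43 members a single hemocyte array stood apart from the other 3, by a gap over range above Dixon's 95% critical value for 4 samples. Chance gives about 1 such group in 20. For the granzyme h precursor cluster036468 the ratio was 0.863, with hemocytes 1 at −1.79 and the others between −4.25 and −3.91. For cathepsin C cluster000861 it was 0.848, with hemocytes 1 at 0.62 and the other 3 undetected at −6.98 to −5.83. For cathepsin C cluster000864 it was 0.967, with hemocytes 3 at −6.69 and the others between −4.26 and −4.17, all 4 undetected. The cause was not tested.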

How the results depend on the processing

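Some called differences changed sign in the fit without the hepatopancreas. In muscle, cathepsin C cluster000858 went from log2 −1.77, called lower, to 1.01, and legumain cluster015793 from −1.98, called lower, to 0.67, neither then called. No called difference of a named member changed sign under the alternatives that kept all 5 tissues. The cause of each change was not tested. Among uncalled ones, thiol reductase cluster034844 in muscle (log2 −1.25) was −3.62 within slide 1 (adjusted p = 0.0078) and 3.1 within slide 2 (adjusted p = 0.0812). Members higher, lower and enriched in hepatopancreas numbered 23 to 24, 17 to 18 and 18 to 19 when single arrays were left out. The ranges were 10 to 17, 2 to 6 and 3 to 9 in the lymphoid organ, 4 to 6, 18 to 23 and 2 in hemocytes, 2 to 3, 7 to 16 and 0 to 1 in muscle, and 2 to 3, 8 to 20 and 1 in gills. Of the comparisons between neighbouring tissues of named members 29 passed, and 25 to 31 with single arrays left out.

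Muscle had 0 enriched members with quantile normalization, with median scaling, with common-probe scaling, with no detection filter, with the stricter detection filter, with the replicate block and without gills 1, muscle 1 and hemocytes 4. Quantile normalization gave 5 members higher in gills, 8 lower in the lymphoid organ and 22 lower in muscle. The stricter filter gave 1 higher in muscle, and array weights gave 7 lower in the lymphoid organ. With the replicate number as a block, gills had 20 lower, hemocytes 19 lower and the neighbouring comparisons 28 passing. With that block, no count apart from muscle enrichment moved by over 1.5 times. Of the 16 arrays, 7 correlated best with an array of their own number.

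Within slide 1, gills had 1 higher, 0 lower and 0 enriched, hemocytes 1 enriched, the lymphoid organ 6 higher, 0 lower and 0 enriched, muscle 9 lower and 0 enriched, and 15 neighbouring comparisons passed. Within slide 2, gills had 1 higher, hemocytes 2 higher and 1 enriched, the lymphoid organ 0 higher, 0 lower and 0 enriched, muscle 0 higher, 1 lower and 0 enriched, and 14 comparisons passed. These fits hold 8 arrays each, with 1 or 2 per tissue. The shares of all tested probes called in them are not given here.

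With 1 probe per description, hepatopancreas had 4 higher, 10 lower and 1 enriched, the lymphoid organ 10, 2 and 5, hemocytes 2, 4 and 1, muscle 1, 6 and 0, and gills 1 lower. With hepatopancreas left out, gills had 1 higher and 0 lower, hemocytes 9 lower and the lymphoid organ 2 lower. Single log2 differences were counted for named members under the alternatives that kept all 5 tissues. Of these, 3578 kept their direction and side of the threshold, 198 lost their call and 39 gained one, while 80 that were not called changed sign. Undetected spots limit the depth: the lowest fitted levels have no order, and their folds are bounds.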
